A study of Mus musculus with 24 samples.

Results

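The 10 genes described here are those of the 55341 gene names in the count table whose levels set apart mouse cell lines carrying mutant NIPBL from the line carrying wild-type NIPBL. They are Ms4a4d, Ank2, Havcr2, Cpne7, Fcho1, Csn3, Lyz2, Mgam, Enpp5 and Lncenc1. They were chosen by their measured counts in these same libraries, for differences between the C1, C2 or C1-C2 line and the wild-type line, so those differences are given as a description and carry no test. All 10 passed the filter on low counts that left 16934 genes to test.

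NIPBL works with its partner MAU2 to load the cohesin ring onto chromatin, and cohesin then extrudes the DNA loops that bring enhancers and promoters together. Genes that depend on distant enhancers are the ones for which such loading is best known to matter. Dexamethasone activates the glucocorticoid receptor, a transcription factor that acts largely from enhancers.

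The RNA came from 3134 cells, a mouse mammary adenocarcinoma line. All 24 libraries share the same engineered background, a short hairpin RNA against NIPBL that is induced by IPTG, plus a piggyBac insertion. With 1 mM IPTG the insertion encoded a C1 mutant, a C2 mutant, a C1-C2 mutant or wild-type NIPBL, or was an empty vector. The empty-vector cells were also grown without IPTG. Every line was kept for 3 days in charcoal-stripped serum and then given 100 nM dexamethasone for 2 hours or ethanol, which makes 12 groups of 2 libraries. The labels do not say which residues C1 and C2 change, and they name 1 line per construct, so what a construct does and how its line differs otherwise cannot be told apart. No group had IPTG without the hairpin, so loss of NIPBL and other actions of IPTG or the hairpin cannot be told apart. The design text speaks of biological replicates without saying that they were separate integrations, and p-values measure the spread between these samples.

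The dexamethasone libraries held 45.0 to 72.9 M counts and the ethanol libraries 32.5 to 42.7 M. Library names are numbered in 1 run per treatment, so that hormone and library batch cannot be told apart. Nipbl itself lay between 48.0 and 73.3 CPM (counts per M counts of the library, after scaling) in the 20 libraries with IPTG, against 151 to 186 CPM in the 4 without it. Its counts did not show the added constructs: the C1, C2, C1-C2 and wild-type lines averaged 54.5, 50.5, 56.1 and 60.6 CPM, against 55.5 CPM in the IPTG empty vector in dexamethasone, and 64.8, 58.6, 63.6 and 66.5 CPM, against 63.8 CPM in ethanol. None of these 8 differences passed (edgeR adjusted p from 0.509 to 0.999), and the C2 libraries lay below the empty vector in both treatments. Whether reads of a construct were counted under this gene name is not given in the sources used here, so the lines are called by their labels. The cell type labels were checked against markers, with their CPM taken per M of all counts and without that scaling. Mesenchymal markers summed to 7690 to 9360 CPM, carried by Vim, Fn1, Col1a2 and Sparc. Of the same list Acta2, Col3a1 and Col1a1 did not exceed 0.0546, 0.19 and 2.12 CPM. Mammary epithelial markers summed to 14.6 to 23.6 CPM, most of it Krt14 (13.5 to 21.7 CPM), and Epcam and Cldn7 were at 0 in every library. Replicate 2 of C1-C2 in ethanol carries a title that says ethanol and a treatment label that says dexamethasone. It was grouped by its title, and on the first principal component, which separates the treatments, it lay with the ethanol libraries. By a chi-square of the counts, which grows with depth, the replicates of wild-type NIPBL in dexamethasone differed most (20.786 per degree of freedom). By correlation of log2 CPM they shared the lowest value, 0.9928, with those of C1 in ethanol.

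Per transcript length these genes sat in the lower part of the tested range. The mean over the 24 libraries, in RPKM (counts scaled to exon length and library size), ran from 0.228 RPKM for Fcho1, at percentile 13.1 of all tested genes, to 2.51 RPKM for Havcr2, at percentile 43.6. Single libraries held between 8 counts, for Ms4a4d, and 2759 counts, for Ank2. The biological coefficient of variation between replicates was 5.85% for Ank2 and 8.41% to 14.2% for the other 9 genes, beside a median of 6.43% over all tested genes. In bulk RNA, a change in the share of cells that express a gene and a change in RNA per cell cannot be told apart.

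All coordinates are those of the count table on mm10, and each gene has the same coordinates in the GENCODE vM21 annotation. The start regions of 7 of the 10 genes were matched by symbol in a RefSeq table of build GRCm38.p6, which gives 250 bases before to 50 bases after each gene start. The windows of Ms4a4d, Havcr2 and Mgam are shown because Ms4a4d had the largest mutant difference, Havcr2 the largest response to IPTG and Mgam opposite directions in different mutants. Each is on the plus strand, 5′ to 3′, at chr19:11536544-11536843, chr11:46454681-46454980 and chr6:40628581-40628880. Capitals mark matches to the motifs searched on both strands, which were AGAACA (a glucocorticoid receptor half-site), TGANTCA (AP-1), TATAAA (the TATA box) and the CTCF core motif, with no overlap between the matches shown.
Ms4a4d: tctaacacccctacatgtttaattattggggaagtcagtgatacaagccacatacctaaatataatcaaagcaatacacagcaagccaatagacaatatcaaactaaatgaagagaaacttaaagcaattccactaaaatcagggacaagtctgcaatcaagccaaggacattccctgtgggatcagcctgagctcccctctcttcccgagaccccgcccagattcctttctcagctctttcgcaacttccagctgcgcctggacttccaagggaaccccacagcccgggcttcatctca
Havcr2: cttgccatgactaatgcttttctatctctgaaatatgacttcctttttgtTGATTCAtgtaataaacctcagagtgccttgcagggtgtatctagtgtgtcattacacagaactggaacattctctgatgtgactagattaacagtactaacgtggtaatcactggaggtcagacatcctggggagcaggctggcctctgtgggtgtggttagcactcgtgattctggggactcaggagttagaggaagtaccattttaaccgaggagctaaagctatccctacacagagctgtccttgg
Mgam: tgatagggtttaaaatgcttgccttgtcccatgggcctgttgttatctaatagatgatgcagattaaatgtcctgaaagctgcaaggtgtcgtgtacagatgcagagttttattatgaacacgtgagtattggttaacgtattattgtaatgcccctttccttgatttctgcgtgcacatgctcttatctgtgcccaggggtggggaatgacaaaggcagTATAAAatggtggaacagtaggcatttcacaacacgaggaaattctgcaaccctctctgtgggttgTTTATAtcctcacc

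The Mgam window held TATAAA from 30 bases before the RefSeq start and again, on the minus strand, from base 37 after it. The Havcr2 window held an AP-1 match, TGATTCA, from 200 bases before that start. Ank2 held TATAAA from 233 bases before its start, and the windows of Ms4a4d, Fcho1, Lncenc1 and Lyz2 held none of these letters. Over all 32851 windows of the table, TATAAA was present in 13.6%, the AP-1 motif in 7.81%, AGAACA in 19.0% and the CTCF core in 0.0609%. The ratio of observed to expected CpG ran from 0.068 in Lyz2 to 0.77 in Fcho1, beside a median of 0.384 over all windows. A match is a description of the letters and not of a bound site.

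Ms4a4d (chromosome 19, 11536801 to 11558467, plus strand) encodes a membrane protein of the MS4A family, which is best known from immune cells. In dexamethasone the C1-C2 line had 5.53 and 5.06 CPM, the C1 line 0.294 and 0.296 CPM and the C2 line 0.443 and 0.282 CPM, against 0.813 and 0.806 CPM with wild-type NIPBL. In ethanol the C1-C2 line had 4.77 and 5.31 CPM, the C1 line 0.264 and 0.207 CPM and the C2 line 0.318 and 0.541 CPM, against 0.471 and 0.565 CPM with wild-type NIPBL. All 4 C1-C2 libraries stood above every other library of the series, and no library of a single mutant exceeded the higher wild-type library of its treatment. Empty-vector cells had 0.485 and 0.302 CPM with IPTG, against 0.556 and 0.526 CPM without IPTG in dexamethasone, and 0.253 and 0.48 CPM with IPTG, against 0.677 and 0.555 CPM without IPTG in ethanol. The 8 empty-vector libraries thus held no level near that of the double mutant. On the log2 scale the C1-C2 line lay 2.71 over wild type in dexamethasone and 3.28 in ethanol, and 3.74 and 3.80 over the empty vector with IPTG. Without the library whose labels disagree the ethanol value over wild type was 3.20. The C1 line lay below wild type by log2 values of -1.45 in dexamethasone and -1.13 in ethanol. Below the C1-C2 line, the order in dexamethasone was wild type, then no IPTG, and then the IPTG empty vector, C2 and C1. C2 overlapped both of its neighbours in that order, and C1 lay below the empty vector without overlap. In ethanol the neighbouring groups under the C1-C2 line all overlapped. Of the distinct stretches of 50 bases in the transcripts of Ms4a4d, 0.546% also occur in another gene, the paralog Ms4a4c, which had 0 counts.

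Ank2 (chromosome 3, 126921612 to 127499350, minus strand) encodes ankyrin-B, which ties membrane proteins to the spectrin skeleton. It had, in dexamethasone, 43.6 and 40.6 CPM in the C2 line, 29.3 and 27.8 CPM in the C1-C2 line and 23.5 and 20.7 CPM in the C1 line, against 20.8 and 17.9 CPM with wild-type NIPBL. In ethanol the levels were 45.9 and 40.4 CPM in the C2 line, 27.5 and 25 CPM in the C1-C2 line and 20.2 and 19.5 CPM in the C1 line, against 19.9 and 17.7 CPM with wild-type NIPBL. Ank2 was thus highest in the C2 line, intermediate in the double mutant and overlapped wild type in the C1 line. Empty-vector cells had 22.5 and 20.5 CPM with IPTG, against 22.3 and 23.7 CPM without IPTG in dexamethasone, and 23.4 and 21.1 CPM with IPTG, against 25.9 and 23.3 CPM without IPTG in ethanol. The C2 line lay over wild type by 1.12 in dexamethasone and 1.20 in ethanol on the log2 scale, and over the IPTG empty vector by 0.97 and 0.95. The C1-C2 line lay over wild type by 0.56 and 0.48, and its ethanol libraries overlapped those without IPTG. No IPTG, C1, empty vector and wild type overlapped as neighbours in dexamethasone. The gene spans 17 other gene models, several on the same strand, and the strand setting of the counting is not given in the sources used here.

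Havcr2 (chromosome 11, 46454935 to 46481255, plus strand) encodes the receptor TIM-3, a checkpoint receptor of T cells and myeloid cells. Its level in dexamethasone was 13.3 and 16.6 CPM in the C1 line, 5.27 and 9.11 CPM in the C2 line and 11.9 and 13.1 CPM in the C1-C2 line, against 5.62 and 4.43 CPM with wild-type NIPBL. In ethanol its level was 9.26 and 11.4 CPM in the C1 line, 4.16 and 5.47 CPM in the C2 line and 7.27 and 9.40 CPM in the C1-C2 line, against 3.59 and 3.42 CPM with wild-type NIPBL. Havcr2 was therefore high in both lines that carry the C1 change, and the C2 libraries spread widely and in dexamethasone overlapped wild type. Empty-vector cells had 6.28 and 6.96 CPM with IPTG, against 1.85 and 2.05 CPM without IPTG in dexamethasone, and 4.66 and 5.31 CPM with IPTG, against 1.56 and 1.58 CPM without IPTG in ethanol. All 20 libraries with IPTG stood above the 4 without it, and the wild-type line lay between the empty vector and the state without IPTG. The C1 line lay over wild type by 1.57 in dexamethasone and 1.56 in ethanol on the log2 scale, over the empty vector by 1.18 and 1.06, and over no IPTG by 2.94 and 2.72. The C1-C2 line lay over wild type by 1.31 and 1.25. C1 and C1-C2 overlapped in ethanol and not in dexamethasone, and C2 and the IPTG empty vector overlapped in both.

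Cpne7 (chromosome 8, 123117374 to 123135182, plus strand) encodes a copine, one of a family of proteins that bind phospholipid in the presence of calcium. Dexamethasone-treated cells had 0.992 and 1.11 CPM in the C1 line, 1.98 and 2.42 CPM in the C2 line and 1.63 and 1.85 CPM in the C1-C2 line, against 0.951 and 0.825 CPM with wild-type NIPBL. Ethanol-treated cells had 1.00 and 0.803 CPM in the C1 line, 1.30 and 1.42 CPM in the C2 line and 1.10 and 1.40 CPM in the C1-C2 line, against 0.273 and 0.308 CPM with wild-type NIPBL. Here the line that stood apart was the wild-type one, lower in ethanol than every other library of the series. Empty-vector cells had 1.76 and 2.14 CPM with IPTG, against 1.51 and 1.43 CPM without IPTG in dexamethasone, and 1.19 and 0.96 CPM with IPTG, against 1.07 and 0.788 CPM without IPTG in ethanol. In ethanol the 3 mutants and both empty-vector groups overlapped as neighbours. The C1, C2 and C1-C2 lines lay over wild type by 1.63, 2.22 and 2.10 on the log2 scale in ethanol but lay within 0.33 of the IPTG empty vector. In dexamethasone they lay 0.24, 1.30 and 0.97 over wild type, and the C1 line lay under the IPTG empty vector by a log2 value of -0.89.

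Fcho1 (chromosome 8, 71708387 to 71725716, minus strand) encodes a membrane-bending protein that acts at the start of clathrin-coated pits. The levels in dexamethasone were 1.96 and 2.37 CPM in the C1 line, 1.08 and 1.05 CPM in the C2 line and 1.20 and 1.43 CPM in the C1-C2 line, against 0.467 and 0.921 CPM with wild-type NIPBL. The levels in ethanol were 2.24 and 1.97 CPM in the C1 line, 0.881 and 0.855 CPM in the C2 line and 1.05 and 1.08 CPM in the C1-C2 line, against 0.595 and 0.437 CPM with wild-type NIPBL. The order of the lines was the same in both treatments, with C1 first, then C1-C2, then C2, and no overlap between these 3. Cells with the empty vector had 0.606 and 0.827 CPM with IPTG, against 0.645 and 0.634 CPM without IPTG in dexamethasone, and 0.785 and 0.36 CPM with IPTG, against 0.607 and 0.409 CPM without IPTG in ethanol. These groups and wild type overlapped, so Fcho1 was above the empty-vector level in the mutant lines and at it in the wild-type line. The C1 line lay over wild type by 1.65 in dexamethasone and 2.02 in ethanol on the log2 scale. The dexamethasone value was 1.22 without replicate 1 of wild type and 2.20 without its replicate 2, and the C2 value of 0.63 was 0.21 and 1.19.

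Csn3 (chromosome 5, 87925579 to 87932665, plus strand) encodes kappa-casein, the milk protein that holds casein micelles in solution. Dexamethasone-treated cells held 0.741 and 0.556 CPM in the C1 line, 3.05 and 2.42 CPM in the C2 line and 2.46 and 2.26 CPM in the C1-C2 line, against 2.37 and 3.28 CPM with wild-type NIPBL. Ethanol-treated cells held 0.422 and 0.673 CPM in the C1 line, 2.59 and 2.42 CPM in the C2 line and 2.04 and 2.07 CPM in the C1-C2 line, against 2.65 and 2.57 CPM with wild-type NIPBL. Among the lines with IPTG the C1 line alone was low, and the double mutant did not share its level. Cells with the empty vector had 2.44 and 2.74 CPM with IPTG, against 1.13 and 1.05 CPM without IPTG in dexamethasone, and 2.61 and 3.00 CPM with IPTG, against 1.19 and 1.11 CPM without IPTG in ethanol. All IPTG libraries outside the C1 line stood above the libraries without IPTG, and all 4 C1 libraries stood below them. The C1 line lay under wild type by log2 values of -2.10 in dexamethasone and -2.25 in ethanol, and under no IPTG by -0.73 and -1.07. In dexamethasone wild type, C2, empty vector and C1-C2 overlapped as neighbours.

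The mammary epithelial markers, set beside this milk protein gene, also differed between groups. Their sum in dexamethasone was 19.4 to 22.4 CPM in C1, 16.0 to 18.4 CPM in C2 and 18.9 to 20.2 CPM in C1-C2, against 22.9 to 23.6 CPM in wild type. In ethanol it was 18.0 to 19.5 CPM in C1, 14.6 to 17.6 CPM in C2 and 18.0 to 20.1 CPM in C1-C2, against 21.8 to 22.6 CPM in wild type. Wild type thus stood above all 3 mutants, with C2 lowest, whereas Csn3 was lowest in C1. In empty-vector cells the sum was 16.3 to 17.4 CPM with IPTG, against 19.7 to 22.1 CPM without IPTG in dexamethasone, and 15.6 to 16.4 CPM with IPTG, against 19.6 to 20.6 CPM without IPTG in ethanol. It was lower with IPTG, where Csn3 was higher. The part of these markers in the values of Csn3 was not tested.

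Lyz2 (chromosome 10, 117277331 to 117282321, minus strand) encodes a lysozyme, an enzyme that cleaves bacterial cell walls and is made in quantity by macrophages. With dexamethasone it reached 1.54 and 1.43 CPM in the C1 line, 2.34 and 2.16 CPM in the C2 line and 2.23 and 2.37 CPM in the C1-C2 line, against 2.44 and 2.80 CPM with wild-type NIPBL. With ethanol it reached 1.61 and 1.76 CPM in the C1 line, 2.23 and 1.20 CPM in the C2 line and 3.11 and 2.62 CPM in the C1-C2 line, against 3.22 and 3.34 CPM with wild-type NIPBL. The C1 line was low in both treatments, and in ethanol the C2 libraries lay on both sides of it. The empty-vector cells held 3.21 and 3.13 CPM with IPTG, against 3.16 and 2.30 CPM without IPTG in dexamethasone, and 2.99 and 2.34 CPM with IPTG, against 2.61 and 2.80 CPM without IPTG in ethanol. The C1 line lay under wild type by log2 values of -0.82 in dexamethasone and -0.96 in ethanol, and under the IPTG empty vector by -1.09 and -0.67. The C2 ethanol value of -0.92 was -1.45 without its replicate 1 and -0.56 without its replicate 2. In dexamethasone neighbouring groups above the C1 line overlapped, except that wild type stood above C1-C2. In ethanol wild type stood above all other groups, and C1-C2, no IPTG and the IPTG empty vector overlapped. Of the distinct stretches of 50 bases in the transcripts of Lyz2, 15.4% also occur in Lyz1 and in no other gene, and Lyz1 had 4 counts over all 24 libraries.

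Markers of blood cells were set beside Lyz2, Havcr2 and Ms4a4d. The 12 macrophage markers summed to 24.1 to 29.7 CPM, carried by Cd14 and Cd68, while Adgre1, Tyrobp and Cd163 were at 0 in every library and Ptprc did not exceed 0.0292 CPM. Their sum was 25.2 to 25.8 CPM in C1, 25.4 to 25.5 CPM in C2, 24.1 to 24.8 CPM in C1-C2 and 24.6 to 24.9 CPM in wild type in dexamethasone, and 25.5 to 26.1 CPM, 25.5 to 26.4 CPM, 25.1 to 27.4 CPM and 25.4 to 27.9 CPM in those lines in ethanol. In empty-vector cells it was 24.9 to 28.1 CPM with IPTG, against 25.8 to 27.2 CPM without IPTG in dexamethasone, and 27.0 to 29.7 CPM with IPTG, against 24.7 to 26.8 CPM without IPTG in ethanol. The 8 lymphocyte markers summed to 0.154 to 0.666 CPM and rest on few counts, 304 for Trac and 74 for Cd79a over all 24 libraries. In empty-vector cells their sum was 0.304 to 0.416 CPM with IPTG, against 0.244 to 0.408 CPM without IPTG in dexamethasone, and 0.154 to 0.183 CPM with IPTG, against 0.445 to 0.666 CPM without IPTG in ethanol. Havcr2 was higher with IPTG in both treatments, while this sum was lower with IPTG in ethanol and overlapped in dexamethasone. In the mutant lines it was 0.288 to 0.311 CPM in C1, 0.311 to 0.424 CPM in C2 and 0.244 to 0.328 CPM in C1-C2, against 0.208 to 0.479 CPM in wild type in dexamethasone. In ethanol it was 0.210 to 0.462 CPM in C1, 0.443 to 0.526 CPM in C2 and 0.259 to 0.418 CPM in C1-C2, against 0.372 to 0.501 CPM in wild type, and all of these overlapped wild type. In dexamethasone the macrophage sum lay higher in the C1 (from 25.2 CPM) and C2 (from 25.4 CPM) lines than in wild type (up to 24.9 CPM). In ethanol the unscaled sum of the empty vector lay higher with IPTG (from 27.0 CPM) than without it (up to 26.8 CPM). The gaps in both treatments are narrow, and library scaling, which these sums leave out, could close them. In ethanol the mutant lines and wild type overlapped. The part of these markers in the values of the 3 genes was not tested.

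Mgam (chromosome 6, 40628831 to 40769123, plus strand) encodes maltase-glucoamylase, a starch-digesting enzyme of the intestinal brush border. In dexamethasone it had 5.02 and 4.76 CPM in the C1 line, 0.838 and 0.939 CPM in the C2 line and 5.24 and 5.12 CPM in the C1-C2 line, against 2.53 and 2.69 CPM with wild-type NIPBL. In ethanol it had 5.36 and 5.13 CPM in the C1 line, 1.42 and 1.03 CPM in the C2 line and 5.67 and 4.11 CPM in the C1-C2 line, against 3.07 and 2.88 CPM with wild-type NIPBL. The C1 and C1-C2 lines were high and the C2 line low, so that the double mutant took the side of C1. The empty-vector cells held 2.63 and 2.08 CPM with IPTG, against 2.62 and 1.72 CPM without IPTG in dexamethasone, and 2.96 and 2.04 CPM with IPTG, against 2.36 and 2.39 CPM without IPTG in ethanol. Wild type and the IPTG empty vector overlapped in both treatments, wild type stood above the cells without IPTG in ethanol, and all 4 C2 libraries were below every other library. On the log2 scale the C1, C2 and C1-C2 lines lay at 0.91, -1.55 and 0.99 against wild type in dexamethasone and at 0.82, -1.27 and 0.71 in ethanol.

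Enpp5 (chromosome 17, 44078813 to 44086567, plus strand) belongs to the ectonucleotide pyrophosphatase and phosphodiesterase family. In dexamethasone it had 0.839 and 0.630 CPM in the C1 line, 2.40 and 2.09 CPM in the C2 line and 1.44 and 1.28 CPM in the C1-C2 line, against 0.726 and 0.595 CPM with wild-type NIPBL. In ethanol it had 0.607 and 0.518 CPM in the C1 line, 2.57 and 1.65 CPM in the C2 line and 1.17 and 1.26 CPM in the C1-C2 line, against 0.471 and 0.565 CPM with wild-type NIPBL. Like Ank2 it was highest in C2 and next in C1-C2, with C1 and wild type overlapping. Empty-vector cells had 1.07 and 0.988 CPM with IPTG, against 1.20 and 1.03 CPM without IPTG in dexamethasone, and 1.09 and 1.05 CPM with IPTG, against 1.07 and 0.992 CPM without IPTG in ethanol. Within each treatment these overlapping groups lay below the C2 and C1-C2 lines and above the C1 and wild-type lines. The C2 line lay over wild type by 1.76 in dexamethasone and 2.03 in ethanol on the log2 scale, and over the IPTG empty vector by 1.13 and 0.99. The wild-type line lay under that empty vector by -0.63 and -1.04.

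Lncenc1 (chromosome 13, 97434970 to 97497007, plus strand) is a long intergenic noncoding RNA known from mouse embryonic stem cells. In dexamethasone it had 2.40 and 3.11 CPM in the C1 line, 6.18 and 7.16 CPM in the C2 line and 2.60 and 2.66 CPM in the C1-C2 line, against 8.39 and 9.11 CPM with wild-type NIPBL. In ethanol it had 1.87 and 2.36 CPM in the C1 line, 6.66 and 7.07 CPM in the C2 line and 2.78 and 2.96 CPM in the C1-C2 line, against 7.29 and 8.04 CPM with wild-type NIPBL. Empty-vector cells had 2.55 and 2.82 CPM with IPTG, against 2.22 and 2.28 CPM without IPTG in dexamethasone, and 2.81 and 2.52 CPM with IPTG, against 1.94 and 2.74 CPM without IPTG in ethanol. The wild-type and C2 lines were thus high, with wild type above C2 in both treatments, whereas the C1 and C1-C2 lines were close to the empty-vector cells. On the log2 scale C1 lay at -1.67 and -1.86, C1-C2 at -1.73 and -1.41, and C2 at -0.39 and -0.16 against wild type in dexamethasone and ethanol. Against the IPTG empty vector the wild-type line lay at 1.70 and 1.52 and the C2 line at 1.31 and 1.36. The 6 embryonic stem cell markers, with Zfp42 at 0, summed to 0.116 to 0.641 CPM. On the opposite strand Lncenc1 overlaps the gene model Gm8756, which held 302 counts in all.

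**Figure D1:**
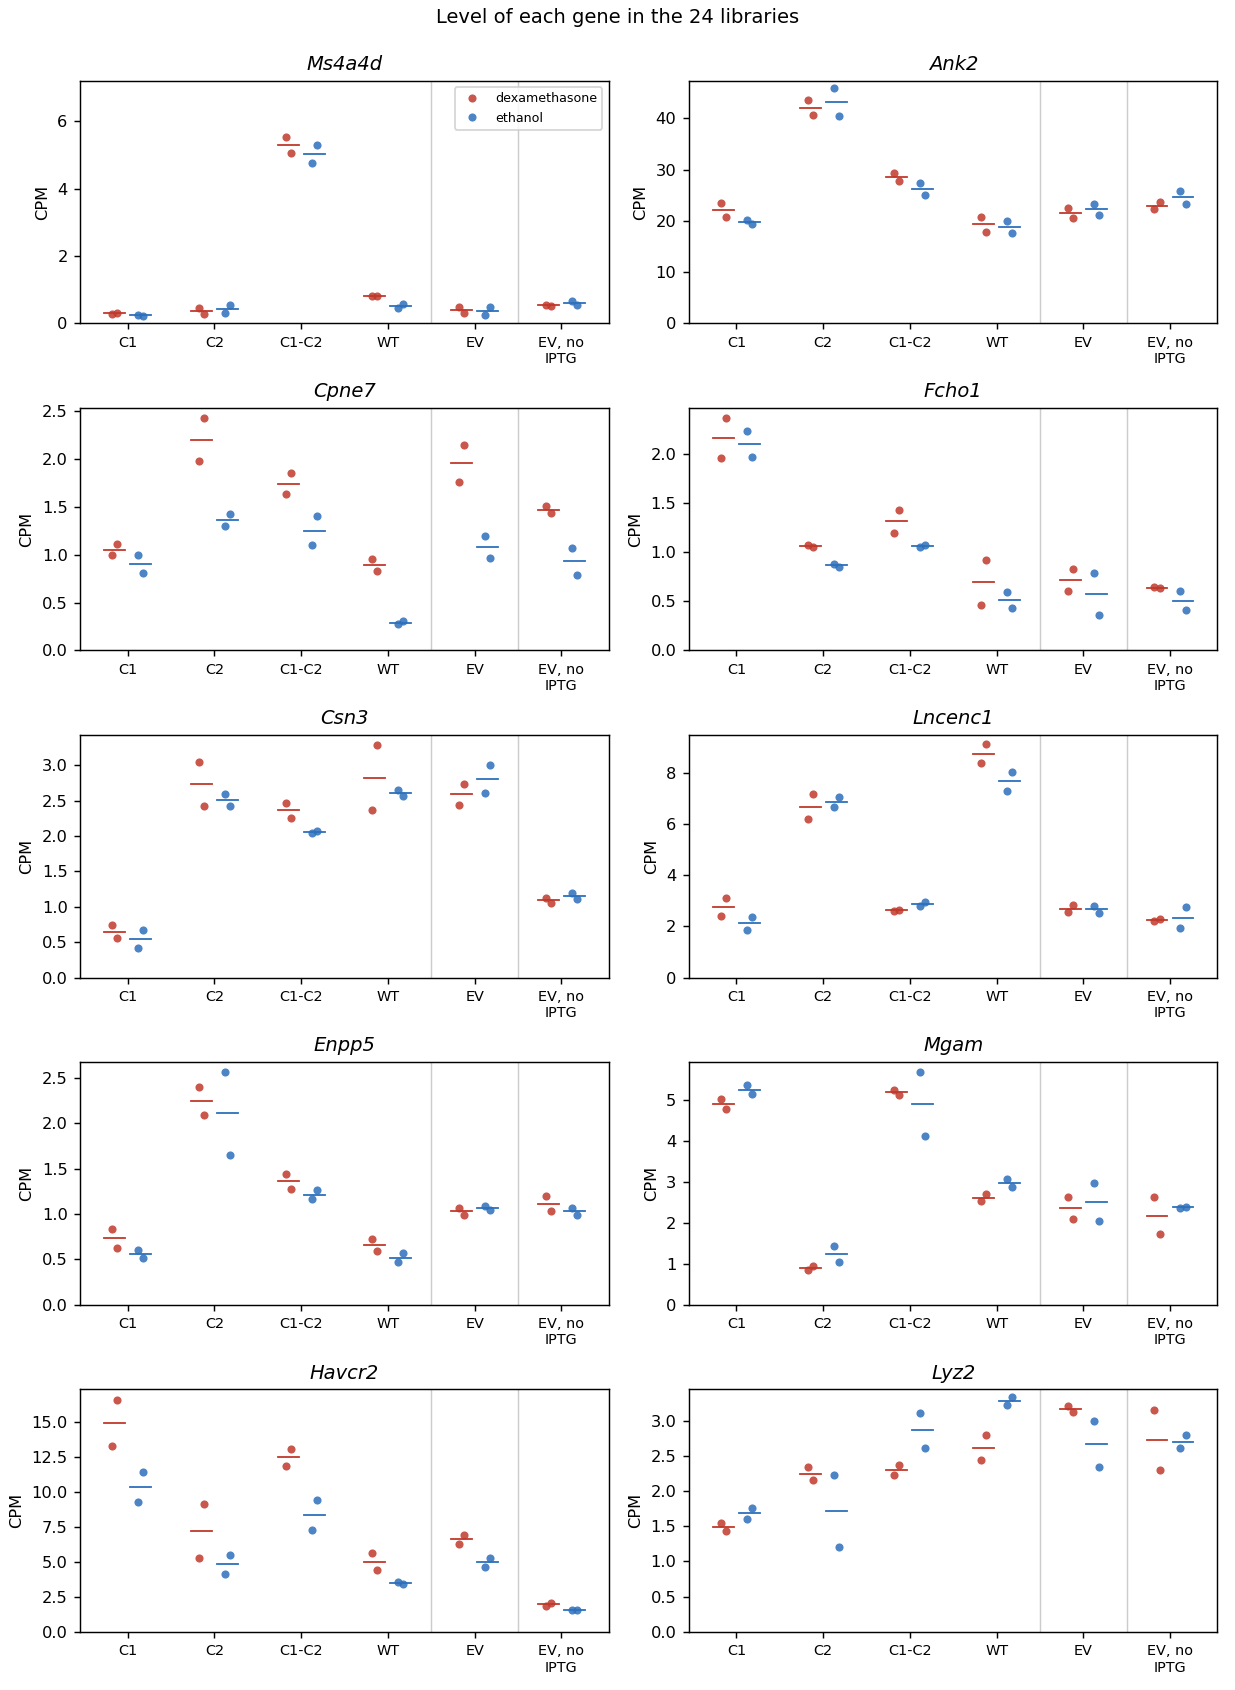
Level (CPM, linear axis from 0) of the 10 genes, with 1 point per library and a bar at the mean of 2, dexamethasone in red and ethanol in blue, for the C1, C2, C1-C2 and wild-type lines, the IPTG empty vector (EV) and the empty vector without IPTG. Ms4a4d reaches 5.53 CPM in the C1-C2 line alone, Mgam falls under 1.5 CPM in the C2 line alone, and Lncenc1 is high in the C2 and wild-type lines.

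Set side by side, the line that stood farthest from wild type was not the same for every gene. It was C1-C2 for Ms4a4d, C2 for Ank2, Enpp5, Mgam and Cpne7, and C1 for Fcho1, Csn3, Havcr2 and Lyz2, in both treatments. In ethanol Lyz2 was nearly as low in C2 (-0.92) as in C1 (-0.96). For Lncenc1 it was C1-C2 in dexamethasone (-1.73) and C1 in ethanol (-1.86). For Cpne7 the wild-type line itself lay below every other library of its treatment, and farthest so in ethanol. The wild-type line also lay below the IPTG empty vector for Enpp5 and Havcr2 in both treatments. For Lncenc1 the wild-type and C2 lines lay above the empty vector in both treatments. These patterns are those for which the genes were chosen, the 3 mutants share the wild-type libraries, and the differences between mutants were not tested.

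Each of the 30 differences had the same sign in both treatments, but the genes were chosen for these differences, so this carries no support. Some were near 0, such as Csn3 in C2 (-0.04 in dexamethasone and -0.06 in ethanol). With 1 library left out some changed sign, as that of Csn3 in dexamethasone did (-0.26 to 0.22). The largest gaps between treatments were for Cpne7, for instance 0.24 in dexamethasone and 1.63 in ethanol in the C1 line, where the wild-type level itself moved, and for Ms4a4d in the C2 line, with -1.14 and -0.29. Measured from the IPTG empty vector in place of wild type, the largest values were 3.74 and 3.80 for Ms4a4d in C1-C2 and -1.98 and -2.34 for Csn3 in C1, in dexamethasone and ethanol.

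**Figure D2:**
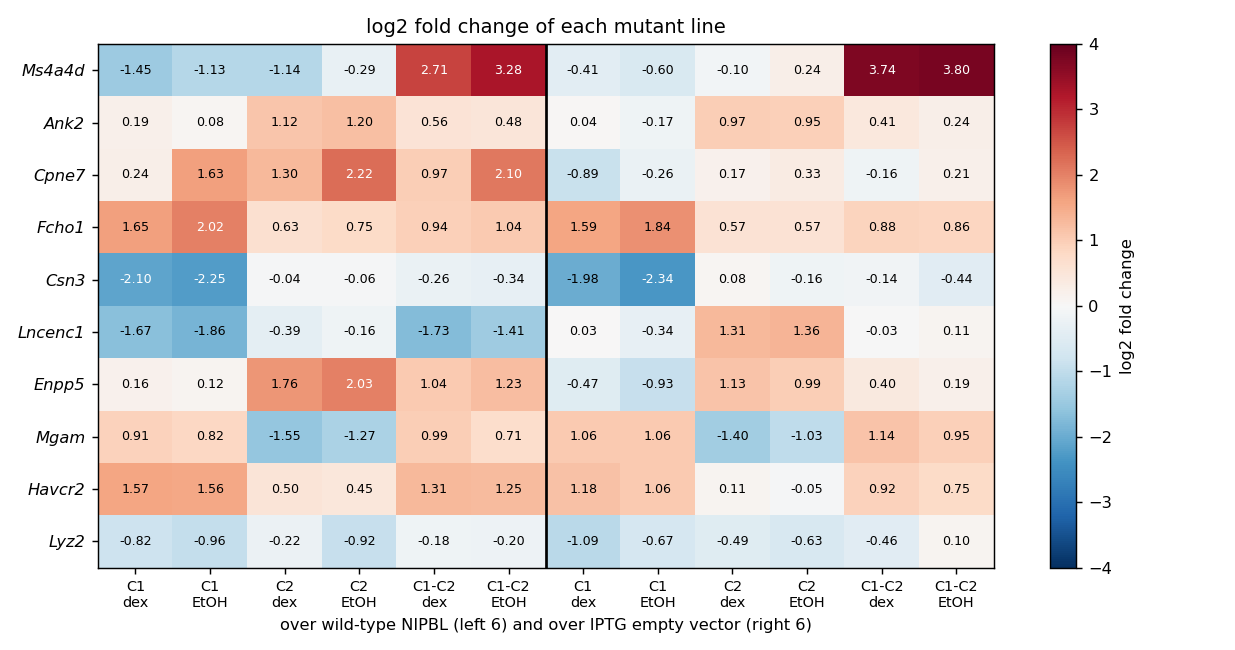
Fitted log2 fold changes of the C1, C2 and C1-C2 lines over wild-type NIPBL (left 6 columns) and over the IPTG empty vector (right 6 columns), each in dexamethasone (dex) and ethanol (EtOH), red for higher and blue for lower in the mutant. Ms4a4d in C1-C2 is high (2.71 to 3.80) and Csn3 in C1 low (-1.98 to -2.34) over both comparators, whereas the ethanol values of Cpne7 lie between -0.26 and 0.33 over the empty vector.

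**Figure D3:**
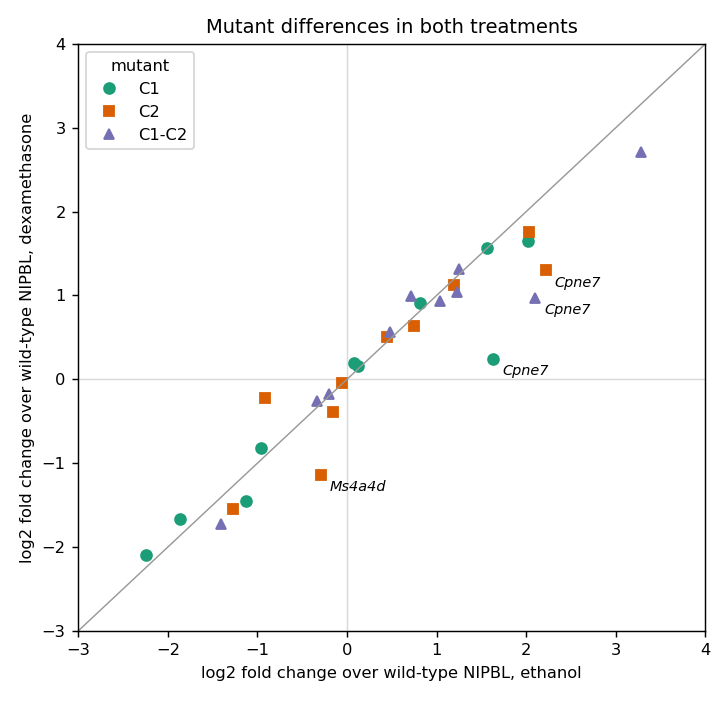
Fitted log2 fold change over wild-type NIPBL in dexamethasone (vertical axis) against ethanol (horizontal axis), with 1 point per gene and mutant (30 points) and the line of equal values. All points lie in the quadrants of equal sign, and Cpne7 lies below the line in all 3 mutants.

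Over the 12 group means of log2 CPM some of the genes ran together. These correlations describe points that share lines, treatment blocks and depth, and that include the lines whose differences chose the genes. Ank2 and Enpp5 had a Pearson r of 0.93, Fcho1 and Havcr2 0.83 and Cpne7 and Enpp5 0.75, while Fcho1 and Lyz2 had -0.77 and Mgam had -0.63 with both Ank2 and Enpp5. Among all other named genes of at least 1 CPM, the 2 most similar by r over the same 12 means were Itpr2 (0.752) and Spata13 (0.73) for Ms4a4d and Wdr82 (0.935) and Gng2 (0.888) for Ank2. The same 2 genes were the most similar to Enpp5, with 0.902 for Wdr82 and 0.94 for Gng2. Havcr2 ran with Rere (0.954) and Srxn1 (0.948), Cpne7 with Rae1 (0.952) and Coq5 (0.918), and Fcho1 with Cubn (0.896) and Exoc1 (0.865). Csn3 ran with Tmem184a (0.948) and Dysf (0.908), Lyz2 with Acox2 (0.892) and Ddrgk1 (0.881), Mgam with Odf2 (0.904) and Dlg4 (0.869), and Lncenc1 with Cdh3 (0.776) and P3h3 (0.76). Ms4a4d and Lncenc1 had the lowest of these values. These genes were picked for the highest r, which does not measure the size of a change. The group means of Wdr82 ran only from 82.9 to 90.8 CPM and those of Ddrgk1 from 44.2 to 47.9 CPM. Those of Gng2 (1.53 to 3.48 CPM) and Dysf (3.09 to 6.85 CPM) varied more.

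The knockdown of NIPBL in empty-vector cells shares no library with the comparisons that chose the genes, and was tested. Havcr2 and Csn3 rose with IPTG in both treatments, and none of the 10 genes was called lower. The Ms4a4d libraries lay lower with IPTG than without it in both treatments, without a call. In dexamethasone Havcr2 had 6.62 ± 0.477 CPM with IPTG, against 1.95 ± 0.143 CPM without IPTG (SD, n = 2 each), a log2 difference of 1.76 (SE 0.24; edgeR adjusted p = 5.01e-05). In ethanol it had 4.98 ± 0.46 CPM with IPTG, against 1.57 ± 0.00847 CPM without IPTG (SD, n = 2 each), a log2 difference of 1.66 (SE 0.27; edgeR adjusted p = 0.000443). Csn3 had 2.59 ± 0.211 CPM with IPTG, against 1.09 ± 0.0587 CPM without IPTG in dexamethasone (SD, n = 2 each), a log2 difference of 1.25 (SE 0.21; edgeR adjusted p = 0.000111). In ethanol Csn3 had 2.80 ± 0.277 CPM with IPTG, against 1.15 ± 0.0576 CPM without IPTG (SD, n = 2 each), a log2 difference of 1.28 (SE 0.22; edgeR adjusted p = 0.000204). Both differences exceed the spread between replicates, in 2 of 2 libraries on each side.

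Of all tested genes 16.9% were called after knockdown in dexamethasone, 8.36% higher, and 13.4% in ethanol, 7.16% higher, beside the 2 of 10 here in each. The median log2 change of the 10 was 0.19 in dexamethasone and 0.13 in ethanol, beside 0 and -0.01 over all tested genes. The other 8 ranged from -0.45 for Ms4a4d to 0.40 for Cpne7 in dexamethasone and from -0.78 for Ms4a4d to 0.21 for Lncenc1 in ethanol. Ms4a4d in ethanol had an unadjusted p of 0.0348 and an adjusted p of 0.152 in edgeR. The targeted gene Nipbl had 55.5 ± 1.48 CPM with IPTG, against 153 ± 2.07 CPM without IPTG in dexamethasone, and 63.8 ± 1.75 CPM, against 181 ± 6.57 CPM in ethanol (SD, n = 2 each).

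**Figure D4:**
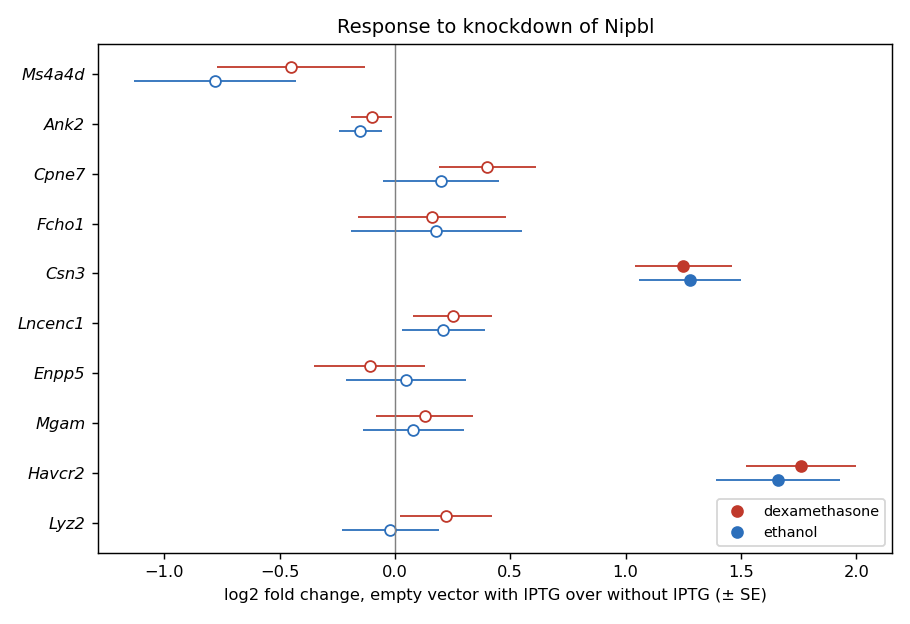
Fitted log2 fold change of each gene in empty-vector cells with IPTG over those without, in dexamethasone (red) and ethanol (blue), with bars of 1 standard error from edgeR and filled symbols for an adjusted p under 0.05. Havcr2 (1.76 and 1.66) and Csn3 (1.25 and 1.28) are filled in both treatments, and the other 8 genes are open.

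After dexamethasone for 2 hours 1 of the 10 genes, Cpne7, passed in empty-vector cells, with calls that several alternatives ended. Cpne7 had 1.95 ± 0.269 CPM in dexamethasone, against 1.07 ± 0.163 CPM in ethanol with IPTG (SD, n = 2 each), a log2 difference of 0.85 (SE 0.22; edgeR adjusted p = 0.00467). Without IPTG it had 1.47 ± 0.0568 CPM in dexamethasone, against 0.931 ± 0.202 CPM in ethanol (SD, n = 2 each), a log2 difference of 0.64 (SE 0.23; edgeR adjusted p = 0.0309). Of all tested genes 32.5% were called with IPTG and 38.0% without it. The call with IPTG was lost without replicate 2 of the empty vector in ethanol (edgeR adjusted p = 0.0664) or in dexamethasone (0.0601). The call without IPTG was lost in 3 of 4 fits that left out 1 of its libraries (edgeR adjusted p from 0.0687 to 0.235) as well as in DESeq2 (adjusted p = 0.0846), in edgeR with no filter (adjusted p = 0.0842) and in edgeR with only the libraries compared (adjusted p = 0.0921). As a description, the log2 response of Cpne7 was 0.22 for C1, 0.69 for C2 and 0.48 for C1-C2, against 1.61 for wild type.

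No difference between the responses with and without IPTG passed for the 10 genes in edgeR, 0 had an unadjusted p under 0.05, and DESeq2 called 0. Over all tested genes 0.171% passed. The log2 response of Havcr2 was 0.41 with IPTG (edgeR adjusted p = 0.174) and 0.31 without it (edgeR adjusted p = 0.447), and in the construct lines it lay between 0.52 and 0.58 without a test.

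Genes of the same families and pathways were counted next, as 128 listed genes in 10 lists, of which 58 could be tested. In any of the 6 mutant comparisons 9 of the 58 were called (15.5%, beside 9.27% of all tested genes), and after knockdown in either treatment 17 (29.3%, beside 21.0%). The median log2 change of the 58 after knockdown was 0.01 in each treatment, beside 0 in dexamethasone and -0.01 in ethanol over all tested genes. In dexamethasone the knockdown lists gave 1 higher and 2 lower of 6 copines, 2 higher and 1 lower of 18 endocytic adaptors, 0 higher and 1 lower of 7 ankyrins and spectrins, 0 higher and 1 lower of 5 genes of the TIM and checkpoint list, and 2 higher and 3 lower of 7 pluripotency genes. None passed among 4 milk protein genes, 2 MS4A genes, 2 ENPP genes, 5 glucosidases and digestive enzymes, and 2 lysozymes and antibacterial proteins. In ethanol 1 higher and 2 lower of the copines passed, 4 higher and 1 lower of the endocytic adaptors, 1 lower of the ankyrins and spectrins, 1 higher of the milk protein genes, 1 higher of the glucosidases, 1 higher and 2 lower of the pluripotency genes, and none of the other 4 lists.

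Cpne2, another copine, fell after knockdown to 39.7 ± 3.18 CPM with IPTG, against 72.2 ± 1.19 CPM without IPTG in dexamethasone (SD, n = 2 each; log2 change -0.86; edgeR adjusted p = 3.11e-10). In ethanol it had 35.5 ± 0.824 CPM with IPTG, against 64.5 ± 3.17 CPM without IPTG (SD, n = 2 each; log2 change -0.86; edgeR adjusted p = 1.27e-09). Against wild type it was lower in C1-C2 by log2 values of -0.31 in dexamethasone and -0.36 in ethanol (edgeR adjusted p = 0.0067 and 0.00243) and in C1 by -0.24 and -0.27 (edgeR adjusted p = 0.0148 and 0.0162). The C1 calls were lost in 3 of 4 and 4 of 4 fits with 1 library left out, and the C1-C2 calls in 3 of 4 and 2 of 4. Cpne7 did not share this pattern, as its log2 change after knockdown was 0.40 and 0.20. Ank1, the erythroid ankyrin, had -0.47 and -0.44 after knockdown (edgeR adjusted p = 8.11e-07 and 4.63e-06), beside -0.10 and -0.15 for Ank2. Klf5 and Klf4, transcription factors of the pluripotency network, had -0.56 and -0.77 in dexamethasone and -0.55 and -0.70 in ethanol, with edgeR adjusted p of 2.74e-06 and 1.68e-05 in dexamethasone and of 5.62e-06 and 4.72e-05 in ethanol. Fcho2, the paralog of Fcho1, was lower in C2 than in wild type in dexamethasone (43.0 ± 0.643 CPM, against 49.7 ± 1.44 CPM, SD, n = 2 each; edgeR adjusted p = 0.0209), and this call was lost in 2 of 4 fits with 1 library left out.

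Genes within 500 kb of the 10 were counted because loops act over such distances. The count takes in tested gene models that lie inside a gene of the 10. These were models within Ank2 (mean 0.112 to 0.382 CPM) and Gm8756 within Lncenc1 (0.255 CPM). Of 127 tested neighbours 17 were called in any of the 6 mutant comparisons, or 13.4%, beside 9.27% of all tested genes. Within 100 kb it was 2 of 31, or 6.45%, which was not above the share of all tested genes. Single comparisons called 0.768% (C1-C2 in ethanol) to 5.33% (C1 in dexamethasone) of all tested genes, with 1.41% for C1-C2 in dexamethasone, 5.17% for C2 in dexamethasone and 2.00% for both single mutants in ethanol. Csn3 had 0 tested neighbours, and 0 of the 5 neighbours of Ms4a4d and of the 3 of Mgam were called. Enc1, a gene 182 kb from Lncenc1, was higher than in wild type in C1, C2 and C1-C2 in ethanol by 0.47, 0.46 and 0.43 on the log2 scale (edgeR adjusted p = 0.0022, 0.00321 and 0.00879). Lncenc1 lay at -1.86, -0.16 and -1.41 there, so it was only slightly lower in C2. In dexamethasone Enc1 was called in C1 alone (0.31; edgeR adjusted p = 0.0272). The Enc1 calls in ethanol were lost in 2 of 4 fits with 1 library left out for each single mutant and in 4 of 4 for the double mutant. Acsf3, 299 kb from Cpne7, had 6.95 ± 0.239 CPM in C1 and 7.09 ± 0.858 CPM in C1-C2, against 4.50 ± 0.0227 CPM with wild-type NIPBL in ethanol (SD, n = 2 each; edgeR adjusted p = 0.00247 and 0.00259). Those calls were lost in 1 of 4 and 2 of 4 such fits. Cyp39a1, 327 kb from Enpp5, was lower in C1 and C2 in both treatments, with log2 values from -0.60 to -0.71 (edgeR adjusted p from 0.00545 to 0.0173), and lost its call in 1 or 2 of 4 such fits.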

How the data were processed

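The authors deposited raw counts per gene name for 24 libraries of total RNA. The submitters' processing notes name bcl2fastq 2.20, cutadapt 1.18, STAR 2.7.0f, featureCounts, Subread 2.0.3 and the build mm10. Strand setting and annotation release are not given in the sources used here. Per the labels the kit was stranded. The members, lists and tests were chosen with earlier results of these data known.

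The counts were tested with edgeR 4.0.16 (quasi-likelihood, robust, TMM factors) in R 4.3.3, in 1 fit with a mean for each of 12 groups (12 residual degrees of freedom). Its filter on low counts kept 16934 genes and removed 38407. P-values were adjusted by Benjamini and Hochberg over all tested genes, and a gene was called under 0.05. CPM are TMM-scaled. Named relatives and neighbours were up to 4 per comparison of smallest adjusted p with a mean of at least 1 CPM, and the text gives part of these. The method was tested on simulated data. Alternatives were RLE factors, no filter, a replicate block within treatment, DESeq2 1.42.0, a fit of the compared libraries alone, leaving out each library in turn, and the library of disagreeing labels left out or moved. No value column outside the libraries was present (0).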

Additional observations from a re-analysis of the deposited data

Results flagged for a closer look

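The response of Lncenc1 to dexamethasone, described above without a test, ran in opposite directions between lines, with both dexamethasone libraries on the same side of both ethanol libraries. Its log2 value was 0.37 in C1 and 0.19 in wild-type NIPBL, where the dexamethasone libraries were higher, and -0.13 in C1-C2, where they were lower. In empty-vector cells, where it was tested, the response was 0.01 with IPTG and -0.04 without it (SE 0.17 and 0.18) and did not pass. The difference between the construct lines was not tested, and 2 libraries on each side can lie apart through their spread alone.

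Lyz2 was higher in both dexamethasone libraries than in both ethanol libraries in the IPTG empty vector (log2 0.24) and lower in the wild-type line (-0.33), in C1-C2 (-0.31) and in C1 (-0.18). The empty-vector value did not pass (SE 0.2; edgeR adjusted p = 0.398), and the others were not tested. The difference between lines was not tested either, and a library batch cannot be told apart from the hormone in any of these values.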

How the results depend on the processing

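The rises of Havcr2 and Csn3 after knockdown passed under every alternative run and with any 1 library left out. Differences of the 10 genes from wild type moved with 1 library left out, for instance that of Fcho1 in C1 in dexamethasone (1.22 to 2.20), and some small ones crossed 0, such as Ms4a4d in C2 in ethanol (-0.70 to 0.06).

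Genes called in the 6 mutant comparisons, in the order dexamethasone and ethanol, numbered 902 and 338 in C1, 875 and 339 in C2 and 238 and 130 in C1-C2. With no filter they numbered 1399 and 515, 1540 and 569, and 517 and 289. With a replicate block within treatment they numbered 1573 and 575, 1698 and 642, and 540 and 278. With only the libraries compared they numbered 280 for C1 in dexamethasone, 80 and 168 for C2, and 95 and 211 for C1-C2. DESeq2 gave 368 for C1-C2 in dexamethasone. The library of disagreeing labels gave 38 in ethanol when left out, and 140 and 17 when moved. With 1 library left out the ranges were 216 to 1335 and 77 to 227 in C1, 128 to 1515 and 62 to 418 in C2, and 43 to 148 and 32 to 59 in C1-C2. After knockdown they were 1374 to 2177 in dexamethasone and 1136 to 1551 in ethanol.

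Differences of responses went from 29 genes to 85 with no filter, 77 with the block, 62 with DESeq2, 47 with only the libraries compared, and 9 to 24 with 1 library left out. Of the 10 genes, 0 responded to dexamethasone without IPTG under no filter, the block, DESeq2 or only the libraries compared. With IPTG 2 responded under no filter and with only the libraries compared, and with 1 library left out 0 to 1 in both states. Called neighbours numbered 17, and 26 with no filter, 28 with the block, 5 with only the libraries compared, 2 of 31 tested within 100 kb, 31 of 237 within 1000 kb and 7 to 27 with 1 library left out. Called relatives numbered 9, and 15 with the block, 4 with only the libraries compared and 4 to 13 with 1 library left out. The cause of these shifts was not tested.

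Values after knockdown that did not pass and turned sign with 1 library left out were, in ethanol, Lncenc1 (-0.04 to 0.46), Fcho1 (-0.51 to 0.60), Mgam (-0.22 to 0.32), Enpp5 (-0.01 to 0.11) and Lyz2 (-0.21 to 0.14), and in dexamethasone Mgam (-0.16 to 0.44) and Fcho1 (-0.08 to 0.37). The labels do not say that a replicate number marks a shared batch, and the numbers were not taken as pairs: deviations of same-numbered libraries correlated at -0.221 to 0.18 in dexamethasone and -0.043 to 0.155 in ethanol, over 0.1 in 10 of 30 pairs of groups. As a hint from the data, replicate 2 lay below replicate 1 on the second principal component in 11 of 12 groups, and the block raised the counts above. A single library held as few as 8 counts of Ms4a4d, which limits the precision of the low levels.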
